A study of Mus musculus with 3 samples.

Results

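The 8 genes described here differed, most of them severalfold, between sorted cells of early mouse embryonic stem cell progeny: Eras, Tcl1, Fbxo15, Utf1, Trh, Mcf2, Mymx and Pycard. They were picked as genes of pluripotent cells outside the core transcription factors, several of them because they were among the most reduced genes in the Snail-induced Flk1+ array. The values of that array therefore chose them and are given as a description, with no test. The 8 genes are 8 of 18193 genes with a probe set of a single gene symbol, and they had 12 such probe sets of 34945. All 8 reached 25.6 intensity units on at least 1 array, a floor set at the 40th percentile of every value deposited, as did 13969 of the 18193 genes.

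RNA came from the mouse embryonic stem cell line A2.snail, in which doxycycline switches on Snail, a zinc finger repressor of epithelial genes. The cells had differentiated for 3 days as embryoid bodies, suspended cell clumps in which the germ layers begin to form, in serum with DKK1, a secreted Wnt inhibitor shared by every group. Of the 3 Affymetrix arrays, the first held sorted Flk1- cells that received 0 ng/mL doxycycline (untreated Flk1- below). The others held sorted Flk1- and Flk1+ cells that received doxycycline at 250 ng/mL from day 2 (called Snail-induced). Flk1, encoded by Kdr, is a VEGF receptor of mesoderm that can form vessels and blood. There was 1 array per group and no doxycycline-treated array without the Snail gene, so no spread between cultures can be given and Snail cannot be told apart from doxycycline. No untreated Flk1+ cells and no undifferentiated embryonic stem cells were analysed here, so that the 8 genes mark such cells was not checked.

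Pluripotent cells are held in that state by a circuit of transcription factors around Pou5f1 (Oct4), Sox2 and Nanog, which also switches on genes with no part in the circuit itself. These downstream genes supply growth signalling, chromatin and other functions of the pluripotent state, and many are shut off when cells enter a germ layer. Fbxo15 and Utf1 are textbook targets of Oct4 and Sox2, and Fbxo15 has served as a reporter of reprogramming although stem cells live without it.

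The DNA before the start of 3 of the genes is shown because the induced protein, Snail, is a repressor that binds the E-box CAGGTG. RefSeq starts (GRCm38.p6) were matched for 6 of the 8 genes, with 7 starts, since Mcf2 has 2; Fbxo15 and Mymx were not among them. Each line gives the 250 bases before the start, 5′ to 3′ on the gene's strand: Eras from chrX:7928608-7928857 (minus strand), Tcl1 from chr12:105222738-105222987 (minus strand) and Trh from chr6:92244651-92244900 (minus strand). Capitals mark CAGGTG or its reverse complement CACCTG in Eras and Tcl1, the Sox core CATTGT in Eras, and the GC box GGGCGG in Trh.
Eras: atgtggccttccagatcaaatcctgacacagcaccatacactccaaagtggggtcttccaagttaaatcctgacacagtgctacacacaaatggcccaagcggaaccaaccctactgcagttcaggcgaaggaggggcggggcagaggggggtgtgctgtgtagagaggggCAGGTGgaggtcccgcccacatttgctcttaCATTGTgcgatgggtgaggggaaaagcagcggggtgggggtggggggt
Tcl1: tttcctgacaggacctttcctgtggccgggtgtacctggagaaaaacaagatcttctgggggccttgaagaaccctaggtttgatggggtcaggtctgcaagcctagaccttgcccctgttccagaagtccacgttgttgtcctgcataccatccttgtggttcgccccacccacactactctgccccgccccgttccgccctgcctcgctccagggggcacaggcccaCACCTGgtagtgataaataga
Trh: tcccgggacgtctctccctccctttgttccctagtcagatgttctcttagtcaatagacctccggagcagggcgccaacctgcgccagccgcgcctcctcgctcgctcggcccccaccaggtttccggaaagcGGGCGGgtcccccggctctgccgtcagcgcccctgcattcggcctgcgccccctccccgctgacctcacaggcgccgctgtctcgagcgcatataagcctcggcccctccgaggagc
The E-box letters stood in 2 of the 7 windows, and both are among the 3 shown. They stood once in Eras, beginning 79 bases before the start, and once in Tcl1, beginning 21 bases before it. They were not found in the windows of Trh, Utf1, Pycard or either Mcf2 start. Of 32851 RefSeq windows of the same length, 17.2% held them on either strand. The Sox core, also searched on both strands, stood in the Eras window, beginning 48 bases before the start, and in 10.7% of all windows. The octamer ATGCAAAT was in none of the 7 windows and in 1.60% of all. The TATA box TATAAA was also in none of the 7, and in 12.4% of all. GGGCGG or its reverse complement was in the windows of Eras, Trh, Utf1, Tcl1 and 1 of the Mcf2 starts, and in 32.7% of all. A match is a description of letters, not of binding, which was not measured.

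These windows also differed in base composition. CpG dinucleotides were near the number that base content predicts in Trh, with an observed over expected ratio of 0.90, against a median of 0.37 over all windows. Utf1 stood at 0.64, Eras at 0.30, Tcl1 at 0.34 and Pycard at 0.14, and the 2 Mcf2 starts at 0.10 and 0.54. The 7 starts thus lay on both sides of that median. DNA methylation was not measured.

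The sort labels were checked on Kdr, which gave 10.5, 9.73 and 404 intensity units in untreated Flk1-, Snail-induced Flk1- and Snail-induced Flk1+ cells, the order used below. The Snai1 probe set gave 29.1, 13.1 and 19.8 and so did not track induction; whether it reads the transgene is stated by no source used here. Array medians over 45037 probe sets were 42.7, 42.4 and 44.6. Differences are on the scale log2(intensity + 9.53), which understates those of dim genes. A fold is 2 to the power of that difference. If the lower of 2 values was under the floor, the higher one divided by the floor is given as a bound, written at least. Such a bound concerns the intensities without the added 9.53. It can exceed the fold on the log2 scale and cannot be ranked against the other folds. A gene counts as past the size rule at 2-fold on that scale, also where the lower value is under the floor. Below, the first step is Snail-induced against untreated Flk1- cells, and the gate is Flk1+ against Flk1- cells of the Snail-induced samples. The signal of an RNA pool cannot tell fewer expressing cells apart from less RNA per cell.

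Among the genes of growth signalling, Eras was lower on each array than on the one before, most of all at the gate. Eras encodes a Ras-like GTPase of embryonic stem cells that is active without a stimulus and acts on PI3 kinase. Its single probe set gave 1510, 829 and 38.97 intensity units. The untreated array was highest and the Flk1+ array lay just above the floor. Snail-induced Flk1- cells were 1.81-fold lower than untreated Flk1- cells, short of the size rule, and Flk1+ cells were 17.3-fold lower than Snail-induced Flk1- cells. Over all 13969 measured genes, Eras was the most reduced at the gate. The probe set carries a suffix marking possible reading of other transcripts, and no other Eras probe set was available to set beside it.

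Tcl1 encodes a small protein that binds Akt, the kinase downstream of PI3 kinase, and raises its activity. It gave 291, 397 and 58.2 intensity units. Unlike Eras it was 1.35-fold higher in Snail-induced than in untreated Flk1- cells, and then 6.01-fold lower in Flk1+ cells. The Flk1+ array was the lowest, 4.44-fold under the untreated one. Of the neighbouring paralogs, picked after their values were seen, Tcl1b3 gave 646, 445 and 521 and Tcl1b4 gave 87.5, 74.8 and 127, and both were higher in Flk1+ than in Snail-induced Flk1- cells, short of 2-fold.

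The rest of the Ras and PI3K/Akt pathway did not share these reductions. Of 22 measured genes of 30 listed, 0 were at least 2-fold lower or higher at the gate, and they had a median log2 difference of 0.23 against 0.00053 over all measured genes. At the first step 2 were higher and 0 lower, and from untreated Flk1- to Flk1+ cells 4 were higher and 1 lower. Pik3r1, a regulatory subunit of PI3 kinase, gave 69.4, 133 and 269 intensity units, 3.53-fold higher in Flk1+ than in untreated cells. Pik3r3, another such subunit, gave 135, 356 and 456, 3.22-fold higher. Mras, a Ras relative, gave 20.2, 50.6 and 91.3, at least 3.57-fold higher by its brightest probe set, while its other probe set gave 27.3, 38.3 and 52.3, 1.68-fold higher. In this pathway the Flk1+ array was thus lowest for Eras, Tcl1 and Pik3cb and highest for Pik3r1, Pik3r3 and Mras.

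The Oct4 and Sox2 targets diverged. Fbxo15, an F-box protein that joins substrates to an SCF ubiquitin ligase, gave 434, 599 and 50.6 intensity units. It was 1.37-fold higher in Snail-induced than in untreated Flk1- cells and 10.1-fold lower in Flk1+ cells, the 5th most reduced gene at the gate. Utf1, a chromatin-bound factor of pluripotent cells, gave 2592, 2697 and 1434 by its brightest probe set. The Flk1- arrays lay within 1.04-fold of each other and the Flk1+ array was 1.88-fold lower, the only 1 of the 8 genes not past the size rule there. With its 3 probe sets averaged on the log2 scale, the difference at the gate was -0.051 in place of -0.91, and that between the Flk1- arrays was -0.79 in place of 0.058. A further Utf1 probe set gave 196, 133 and 78.5, lower at each step by 1.44-fold and 1.62-fold and 2.34-fold from end to end. The remaining one reached the floor only in untreated cells, at 30.4, 1.13 and 19.6. The direction of Utf1 between the Flk1- arrays therefore differed between its probe sets. That of the brightest one turned from higher to lower with each array centred on the median of its measured genes. The gene turned likewise with all probe sets averaged.

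The SCF machinery around Fbxo15 was nearly level. Of 24 measured genes of 25 listed, 0 were past 2-fold at either step, and 2 were lower and 0 higher from untreated Flk1- to Flk1+ cells. These were the F-box genes Fbxo7, at 340, 225 and 129 intensity units, and Fbxo2, at 188, 151 and 79.0. Rbx1, the ring finger subunit, gave 59.6, 25.1 and 28.3, at least 2.33-fold lower at the first step against the floor but just short of 2-fold on the log2 scale used for counting.

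**Figure D1:**
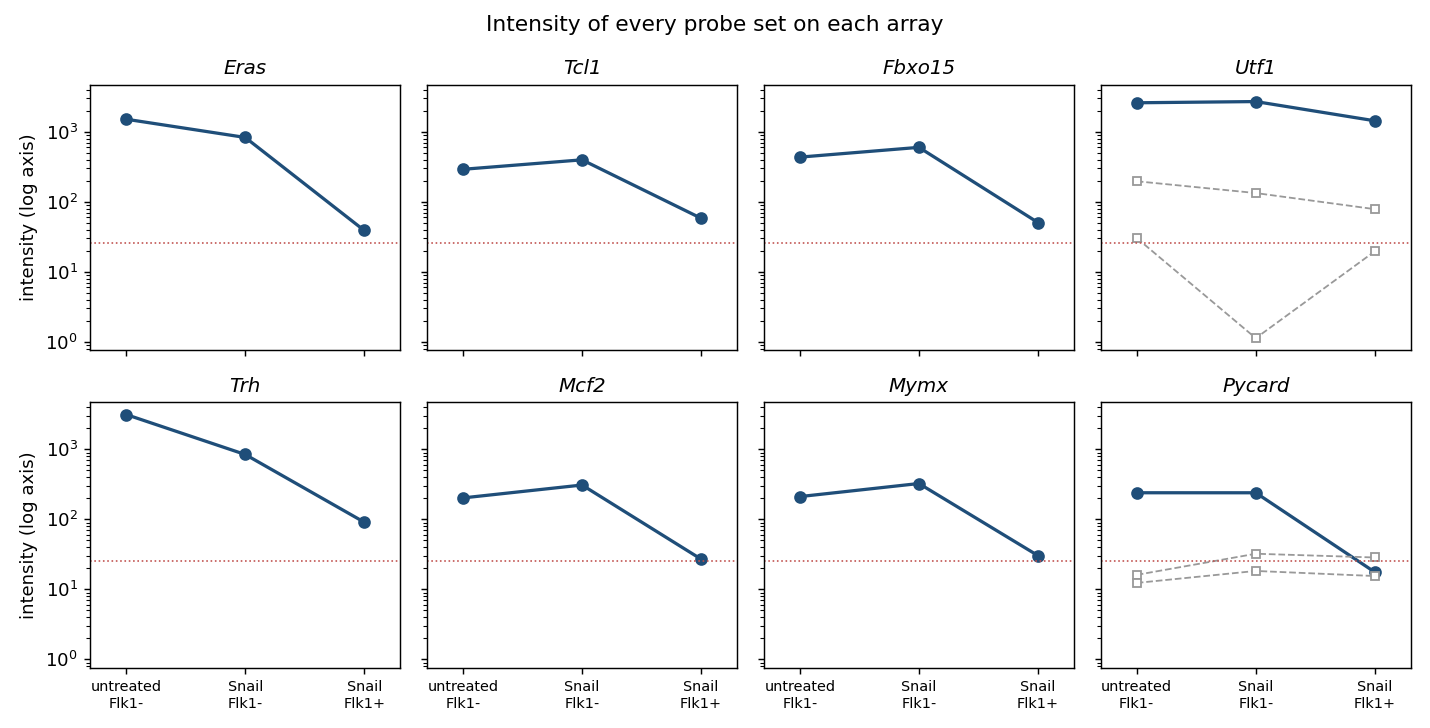
Intensity on a log axis (y) for each of the 8 genes on the 3 arrays (x), 1 array per group and no error bar; solid blue lines are the probe set that stands for the gene, dashed grey lines its other probe sets, and the dotted red line the floor of 25.6. Eras and Trh descend at both steps, Tcl1, Fbxo15, Mcf2 and Mymx are slightly higher in Snail-induced Flk1- cells and low in Flk1+ cells, and the dim probe sets of Pycard do not show the drop of its bright one.

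Trh had the largest reduction of the 8 between the Flk1- arrays. It encodes the precursor of thyrotropin-releasing hormone, the hypothalamic peptide that drives thyrotropin release. Its single probe set gave 3135, 843 and 91.1 intensity units. Each array was lower than the one before, by 3.69-fold and then 8.48-fold. Of its whole log2 difference between untreated Flk1- and Flk1+ cells, 37.9% was present at the first step, against 17.2% for Eras. Only 87 measured genes, 0.623%, were at least 2-fold lower at both steps, and Trh was the 1 gene of the 8 among them.

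The genes that make or receive the peptide were partly higher in Flk1+ cells. Of 7 measured genes of 10 listed, 3 were at least 2-fold higher and 0 lower at the gate, and 4 were higher and 0 lower from untreated Flk1- to Flk1+ cells (median log2 difference 1.21, against 0.015 over all measured genes). At the first step 1 was higher and 1 lower. The counts include genes whose Flk1- values lay under the floor, namely Trhr in both comparisons and Qpct from untreated Flk1- to Flk1+ cells, with bounds of at least 1.43-fold and 1.78-fold. Cpe, a carboxypeptidase that trims peptide precursors, gave 1302, 1946 and 6526 intensity units. Pam, which amidates peptide ends, gave 36.3, 116 and 236, 5.37-fold higher in Flk1+ than in untreated cells. Furin, a precursor protease, dipped in between, at 597, 183 and 961, and so was 3.15-fold lower at the first step, where Trh was also lower. The receptor gene Trhr, picked after its values were seen, gave 36.6 in Flk1+ cells by its brightest probe set. Its other probe set was under the floor on all arrays, at 5.9, 2.23 and 12.4. These enzymes serve many peptides and matrix proteins besides this hormone.

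Mcf2 and Mymx had almost the same profile although they belong to unlike classes. Mcf2, the Dbl protein, is a guanine nucleotide exchange factor, and its probe set gave 202, 309 and 27.0 intensity units. It was 0.59 higher on the log2 scale in Snail-induced than in untreated Flk1- cells and 8.71-fold lower in Flk1+ cells. Mymx, a membrane micropeptide that fuses myoblasts (also called myomerger), gave 211, 325 and 30.4, 0.60 higher on that scale and then 8.37-fold lower. Their log2 differences at the 2 steps lay 0.058 apart, the shortest distance among the 28 pairs of the 8 genes. For both, the Flk1+ array lay barely above the floor.

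The skeletal muscle genes measured beside Mymx were mostly level. Of 18 listed genes, 9 were measured; 0 were past 2-fold at either step, and 1 was from untreated Flk1- to Flk1+ cells. That was Des, encoding desmin, at 89.6, 138 and 237 intensity units, highest where Mymx was lowest. Myod1, the muscle-determining factor gene, gave 25.8, 19.7 and 38.9 by its brightest probe set, while its other one was under the floor on all arrays. Actc1, an actin of heart and muscle, gave 157, 209 and 252, as bright as Mymx but short of 2-fold in each comparison. Mymk, the fusion partner of Mymx, was under the floor on all arrays, at 7.68, 5.31 and 9.74.

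Pycard encodes ASC, the adaptor that joins inflammasome sensors to caspase-1, and its reduction rests on a single probe set. That probe set gave 239.7, 239.5 and 17.6 intensity units, so the Flk1- arrays were level and Flk1+ cells lay under the floor, at least 9.37-fold lower. The other probe sets of the gene gave 16.1, 32.3 and 28.5 and, on all arrays under the floor, 12.4, 18.3 and 15.5. With the 3 averaged, the log2 difference at the gate was -1.16 in place of -3.20, and that from untreated Flk1- to Flk1+ cells was -0.81 in place of -3.20, no longer past 2-fold. In this array design the level of Pycard thus depends on which probe set is read.

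The genes that work with ASC ranged from bright to under the floor. Of 22 listed genes, 13 were measured, and 1 was at least 2-fold higher and 0 lower at the gate. That was Aim2, a sensor of cytosolic DNA, at 23.7, 25.6 and 65.8 intensity units. Il18, an inflammasome substrate, gave 116, 143 and 69.5. Il1b, another substrate, was under the floor in both Flk1- arrays and gave 32.99 in Flk1+ cells. The brightest measured genes of the list, picked after their values were seen, differed by less than 2-fold by their brightest probe sets: Txnip, a thioredoxin-binding protein gene, gave 2143, 2578 and 3029, and Gsdme, a pore-forming gasdermin, 1191, 1418 and 1418. Nlrp3 and Gsdmd, picked after their values were seen, were under the floor on every array. Leukocyte markers summed to 599, 422 and 572, with 7, 6 and 7 of 9 at the floor or above. Their part in the Pycard values was not tested.

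At the gate 7 of 8 were at least 2-fold lower and 0 were higher, and their median log2 difference was -3.10. Over all measured genes 4.89% were at least 2-fold lower there and 4.85% higher, and nothing is read from the contrast since the genes were picked on it. From untreated Flk1- to Flk1+ cells 7 of 8 were again lower, where 6.41% of all measured genes were lower and 8.1% higher, and the median was -2.71. Both comparisons use the Flk1+ array, so they are not separate evidence. Utf1 at 1.88-fold lay just outside the rule and Tcl1 at 6.01-fold was the nearest inside it.

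Between the Flk1- arrays, a contrast the rule did not name, 1 of 8 was at least 2-fold lower and 0 higher. This contrast is not free of the pick, since each of its arrays is the reference of a comparison with the Flk1+ array. Over all measured genes 2.03% were lower and 2.95% higher by that much. With each array centred on the median of its measured genes, 44.1% of such calls were higher in place of 59.3%. By sign alone 5 of the 8 were higher and 3 lower, where 54.9% of all measured genes were higher and 45.1% lower, so the count of signs was near the background. The median of the 8 was 0.25, against 0.038 over all measured genes. Trh and Eras had the lowest differences, -1.88 and -0.86, and Mymx the highest, 0.60. The signs of Pycard, with a difference of -0.00075, and of Utf1 turned with the processing. Those of the other 6 genes held under the 7 alternatives that gave each a value (6 for Eras). These genes have 1 probe set each, so only quantile normalisation and centring could have turned their signs.

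**Figure D2:**
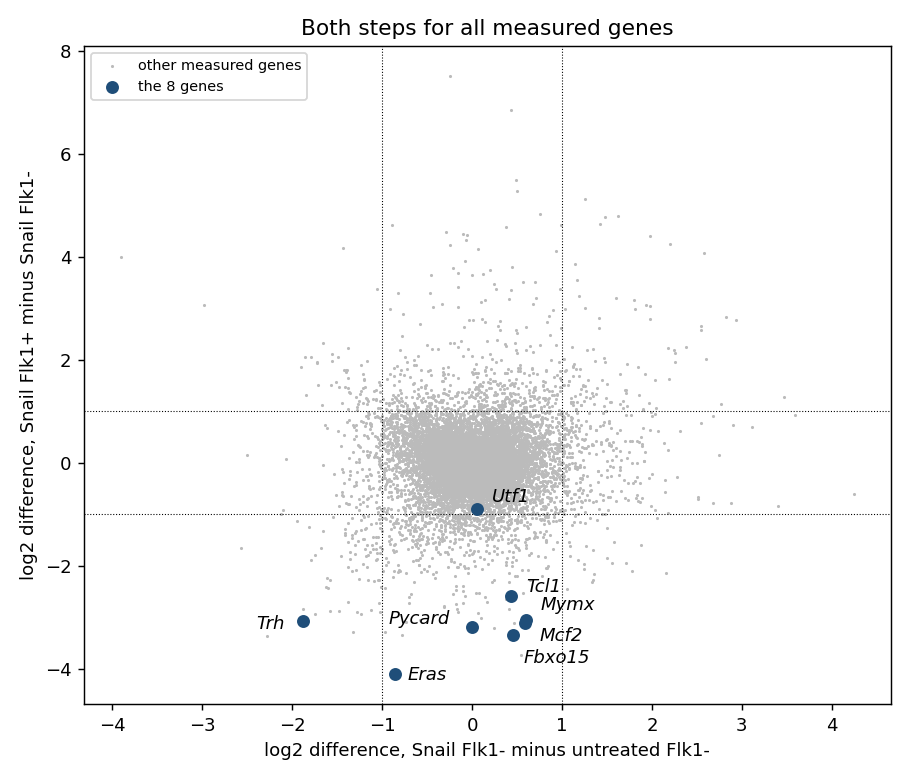
Log2 difference between the Flk1- arrays (x) against that between the Snail-induced arrays (y) for 13969 measured genes, 1 point per gene, with the 8 genes in blue and dotted lines at 2-fold; 1 array per group, so no error bar. The Snail-induced Flk1- array enters both axes with opposite sign. Of the 8, 7 lie below the lower line; Trh alone is also left of the left line, and Utf1 lies inside both.

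The pluripotency regulators were read on the same arrays. Of 16, all measured, 8 were at least 2-fold lower and 2 higher at the gate (median -1.08). Over all measured genes the shares were 4.89% and 4.85%. Between the Flk1- arrays 0 of 16 were past 2-fold. Nanog gave 1767, 1584 and 203 intensity units, Nr0b1, an orphan nuclear receptor gene, 321, 382 and 32.8, and Tfcp2l1, a naive-state factor gene, 87.8, 117 and 10.5. Nr0b1 and Tfcp2l1 had the shape of Fbxo15 and Tcl1, slightly higher and then low. The other probe sets of Tfcp2l1 were under the floor on all arrays. These regulators were named for the largest differences, and the next were picked after their values were seen. Pou5f1 stayed bright, at 5224, 5963 and 3607, 1.65-fold lower at the gate. Sox2 gave 5023, 5709 and 1683, 3.38-fold lower. Of the 2 higher, Stat3 gave 220, 432 and 1087, and Tbx3 35.6 in Flk1+ cells after values under the floor. Of 21 measured genes among 25 other listed effectors of embryonic stem cells, 12 were at least 2-fold lower and 0 higher at the gate (median -1.07). Between the Flk1- arrays 0 were past 2-fold. From untreated Flk1- to Flk1+ cells 14 were lower and 1 higher. The higher one, picked after its values were seen, was Dppa2, at 1450, 2320 and 3588 by its brightest probe set. Fgf4, a growth factor gene, gave 568, 326 and 23.5 by its brightest probe set, while another of its probe sets gave 160, 106 and 118. Morc1, a germ cell chromatin gene, gave 131, 184 and 12.8, and Dnmt3l, a cofactor of DNA methylation, 162, 232 and 43.0. Dnmt3l was 4.60-fold lower at the gate, and Fgf4 and Morc1 at least 12.8-fold and 7.22-fold.

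**Figure D3:**
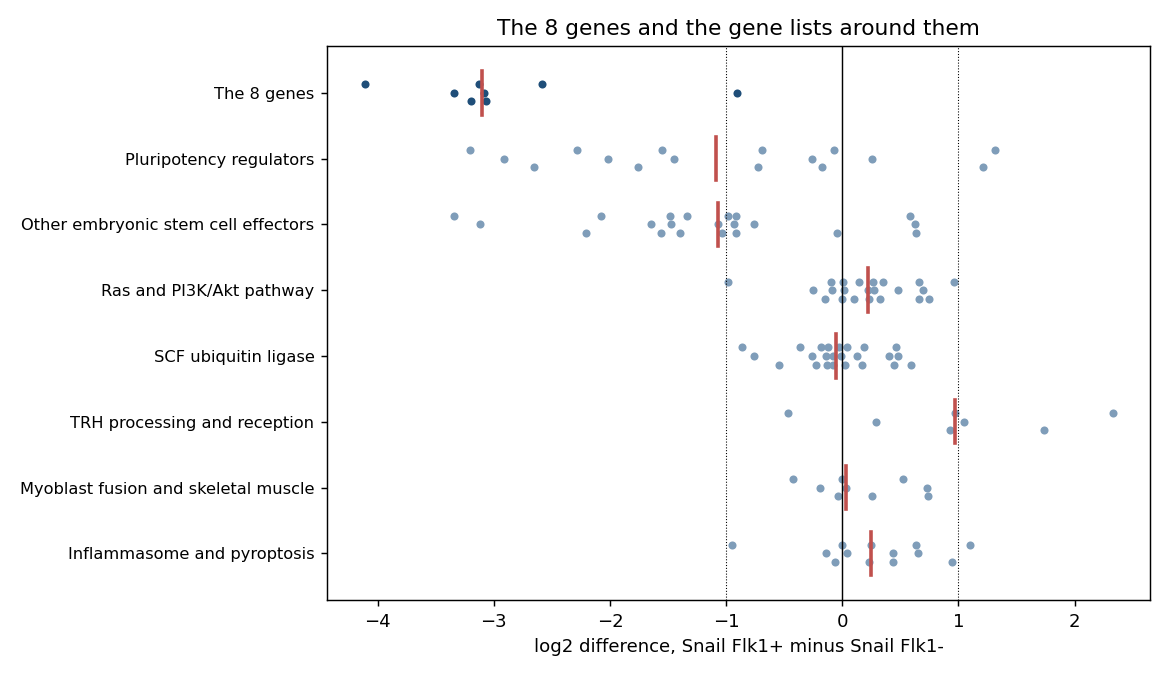
Log2 difference of Snail-induced Flk1+ minus Snail-induced Flk1- cells (x), 1 point per measured gene, for the 8 genes and 7 gene lists (y); red bars are medians and dotted lines mark 2-fold, and vertical scatter only separates points. The medians of the pluripotency lists are -1.08 and -1.07, those of the SCF and muscle lists -0.05 and 0.03, and that of the peptide processing list 0.97.

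Profiles most like each gene were sought among 9807 measured genes, by the distance between their log2 differences at the 2 steps, over the 3 arrays. Morc1 was the nearest to Fbxo15, Mcf2 and Mymx, at distances of 0.22, 0.13 and 0.15. Nr0b1 at 0.25 and Srgn, the serglycin proteoglycan gene, at 0.48 came next for Fbxo15. Ephx2 and Nr0b1 came next for Mcf2, at 0.34 and 0.36, and for Mymx, at 0.30 and 0.38. Tfcp2l1 was nearest to Tcl1 at 0.092, followed by Prune2 at 0.15 and Ephx2 at 0.25. Srgn was nearest to Pycard at 0.21, followed by Nr0b1 at 0.24 and Tcea3 at 0.28. Nearest to Trh were Esrp1, an epithelial splicing factor gene, at 0.20, the kinase gene Mapk13 at 0.24 and the receptor gene Erbb3 at 0.36; Esrp1 gave 1215, 356 and 38.3 intensity units. Eras had no gene within 0.5; Fgf4 was closest at 0.77, then Irs4, an adaptor of insulin receptor signalling, at 0.83 and Crabp2, whose product carries retinoic acid, at 1.02. Utf1 had 960 genes within 0.5, led by Parp12 at 0.015, Ubxn2b at 0.034 and Aga at 0.038, so its profile was common. The number of genes within 0.5 was 3 to 11 for the other 6. In Flk1+ cells Morc1, Tfcp2l1, Tcea3, Mapk13, Erbb3, Fgf4 and Pycard itself lay under the floor. Their distances at the gate, and the order these give, thus rest in part on values that have no order.

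Markers of other cell types were read beside the 8 genes. Endothelial markers were higher in the Flk1+ array: 10 of 10 reached the floor there against 4 of 10 in each Flk1- array. Among the 10 is Kdr, whose level was set by the sort. Their summed intensities were 1216, 1105 and 5618, of which Egfl7 alone gave 1007, 866 and 2833. Feeder fibroblast markers summed to 530, 1024 and 843 intensity units, with 6 of 10 at the floor or above on each array. At the first step 4 of 7 measured were at least 2-fold higher and 0 lower, against 2.95% and 2.03% of all measured genes. At the gate 0 of these 7 were higher and 2 lower. Visceral endoderm markers summed to 569, 647 and 1737, of which Sox17, also an endothelial gene, was 1466 in Flk1+ cells. Without Sox17, a choice made after the values were seen, they summed to 501, 551 and 270, of which Cubn, an endocytic receptor gene, gave 219.6, 257 and 44.0. Neural ectoderm markers summed to 1842, 1976 and 1384. The part of these cell types in the differences was not tested.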

How the data were processed

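Sorted cells of 3 groups were measured on 1 Affymetrix array each. Per the labels' protocols, biotinylated cRNA was made from 2 ug of column-purified total RNA. The deposited values are 1 intensity per probe set on a linear scale; how they were summarised and scaled, and with which software, is not stated in those labels. The number of arrays limits the precision, and no test was possible.

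Gene names came from the platform annotation, with the current symbol looked up by Entrez ID in RefSeq (GRCm38.p6). Among 45037 probe sets, the 34945 with 1 symbol were used; 932 with several and 9160 without any were not. Differences were taken on log2(intensity + 9.53), where 9.53 is the 20th percentile of the whole table. The probe set with the highest mean log2 value stood for its gene. The columns were used as deposited, since their medians lay within 0.1 on that scale.

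All members are named; for each, the 3 genes with the nearest profile (value of at least 100 on some array, clone names skipped); and from each pathway list up to 3 with the largest difference. Members and lists were chosen with earlier results of these data known. The list around Mcf2 is not reported here. Counting was tested on simulated data without noise, which checks the code only and not the reliability of calls on single arrays. The 9 alternatives concerned scaling, offset, floor, probe sets and the size rule. Python 3.11.15, numpy 2.4.6 and pandas 2.3.3 were used.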

Additional observations from a re-analysis of the deposited data

How the results depend on the processing

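The 8 genes had 6 or 7 members at least 2-fold lower at the Flk1 gate and from untreated Flk1- to Flk1+ cells, and 1 between the Flk1- arrays, under the 9 alternatives (quantile normalisation, centring, no offset or an offset of 32, no floor or one at the 60th percentile, the mean of all probe sets, leaving out probe sets that can read several transcripts, and 3-fold in place of 2-fold). Their median log2 difference at the gate lay between -3.47 and -2.52. Of 165 single differences recomputed, 164 kept their side of the size rule. That of Pycard from untreated Flk1- to Flk1+ cells became -0.81 with all probe sets averaged. For the 6 members with a single probe set, averaging probe sets or leaving some out could not change a value. Eras could not be read without probe sets of the suffix for several transcripts. Counts over all genes moved more. Between the Flk1- arrays, genes lower numbered 283 and became 528 with no offset, 110 with an offset of 32, 168 with the higher floor, 178 with averaged probe sets and 32 at 3-fold. Genes higher numbered 412 and became 224 with an offset of 32, 264 with averaged probe sets and 115 at 3-fold. At the gate, 683 lower and 678 higher became 410 and 450 with an offset of 32, and 228 and 241 at 3-fold. From untreated Flk1- to Flk1+ cells, 896 lower and 1132 higher became 396 and 513 at 3-fold. A stricter rule or floor leaves fewer genes by construction; the cause of the other moves was not tested. Of 567 list counts and medians recomputed, 41 moved by over 1.5 times or to or from 0. No paired analysis was possible because each group had 1 array, and no array could be left out. Values under the floor have no order, which limits Pycard in Flk1+ cells most.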

Other observations

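The protein-coding genes on either side of each of the 8 on the chromosome, by the GRCm38.p6 RefSeq order, were read after the data had been seen. Of these 16 neighbours 11 were measured, and 3 were at least 2-fold lower and 0 higher in Snail-induced Flk1+ than in Snail-induced Flk1- cells. Over all measured genes 4.89% were lower and 4.85% higher by that much, and the count was not tested against these shares. The measured neighbours had a median log2 difference of -0.18. Pcsk1n, which encodes a proprotein convertase inhibitor and lies beside Eras, gave 118, 105 and 42.6 intensity units in untreated Flk1-, Snail-induced Flk1- and Flk1+ cells, while Hdac6, a deacetylase gene on the other side, gave 733, 831 and 533. Kndc1, beside Utf1, gave 41.5, 61.3 and 15.7, the last of them under the floor. Prickle2, a planar polarity gene beside Trh, gave 124, 361 and 174, so it was highest in Snail-induced Flk1- cells, where Trh was between its extremes. Cyb5a and Timm21, on the sides of Fbxo15, gave 1586, 1331 and 1172, and 1040, 1093 and 1008, all within 1.5-fold. Rbsn, on the other side of Trh, gave 210, 232 and 206. Slc29a1, a nucleoside transporter gene beside Mymx, gave 550, 435 and 552.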
